A study of Homo sapiens with 9 samples.

Results

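Small nucleolar RNAs (snoRNAs) are short noncoding RNAs that guide the chemical modification of other RNAs, chiefly ribosomal RNA. C/D box snoRNAs, whose symbols begin with SNORD, pair with the target and direct ribose methylation by fibrillarin. H/ACA box snoRNAs, whose symbols begin with SNORA, direct the conversion of uridine to pseudouridine by dyskerin. In human cells most of them are cut out of the introns of host genes, many of which encode ribosomal proteins or are noncoding RNAs of the SNHG family. The members described here were chosen by their measured level: they were the snoRNA genes that had an array transcript cluster (a probe set read as 1 value) of their own and whose highest value on any array exceeded 7.71, the median of all values. They numbered 110 (71 C/D and 39 H/ACA) of 176 snoRNA genes with their own cluster (115 C/D and 61 H/ACA), and of 18417 genes with their own cluster in all, 12254 of which passed the same filter. The class was read from the symbol.

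The study asked which genes ethanol alters in embryoid bodies, the floating aggregates that begin to differentiate when cells cannot attach, of NCCIT, a human embryonal carcinoma line that resembles pluripotent cells. Total RNA was labelled for 9 Affymetrix whole-transcript arrays: 1 of undifferentiated NCCIT cells and 8 of embryoid bodies, untreated, with 50 mM ethanol, with an additive abbreviated FA, or with both, at 7 and at 21 days. The labels give neither the meaning of FA nor its dose, and their treatment protocol describes the first 7 days only. Each condition had 1 array of 1 cell line, and nothing in the labels said whether arrays came from separate cultures, so p-values measure only how these arrays vary, and that variation may be technical.

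All values are log2 expression values, so a difference of 1 is 2-fold. Effects come from 1 additive limma model over the 9 arrays, with ethanol, FA and day each averaged over 4 matched pairs of arrays. The number of arrays limits their precision. Genes were called at a Benjamini-Hochberg adjusted p under 0.05 over all 12254 genes. A cluster reads any RNA with its bases, so mature snoRNA and host intron RNA cannot be told apart. In such bulk samples, fewer cells of a type and less RNA per cell cannot be told apart either. Of 10 markers of undifferentiated NCCIT cells, all 10 fell between day 7 and day 21 and 7 were lower in embryoid bodies than in undifferentiated cells. Of 17 markers of other cell types, 8 were measured above the filter and 4 rose by day 21. These were led by the neural factor PAX6, which rose by 4.32. PAX6 exceeded the filter on the day 21 arrays alone, so its rise is a description. Of all genes tested, 26.3% rose and 22.6% fell by day 21, and 17.2% were lower in embryoid bodies. The part of cell type in the snoRNA values was not tested.

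The filter removed 66 snoRNA genes. Just inside it were SNORD59A and SNORD105, both with a highest value of 7.72, and just outside were SNORA15 at 7.698 and SNORA14A at 7.692. Of the 110 members, 79 exceeded the median on all 9 arrays and 31 on some of them. A member of the latter kind had to be higher on those arrays than elsewhere, so counts over the 110 are descriptions, given with the 79 where they differ. A further 74 clusters named a snoRNA together with other symbols and were not used. From the lowest to the highest of the 9 arrays a member moved by 0.64 at the median, with a smallest range of 0.20 and a largest of 2.22. This range reached 1 in 22 members, 16 of them C/D and 6 H/ACA. Among day 7 arrays the one with ethanol and no FA had the lowest mean correlation over the members with the other day 7 arrays. It stood at 0.986 against 0.991 to 0.993, and day 21 arrays lay between 0.995 and 0.996. Over all tested genes the same array was also lowest at day 7, at 0.983 against 0.989 to 0.990, so its low correlation is not particular to the snoRNAs.

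The RefSeq gene table (GRCh38.p14) placed 107 of the 110 members inside the span of a host. Of the other 3, SNORD13 and SNORD32B lay in none. SNORD13P3, a pseudogene by its symbol, was given no host by rule. The 107 lay in 61 hosts; 67 members had a protein-coding host and 38 a long noncoding one. Host genes of snoRNAs are known for starts with a pyrimidine tract, which links translation of the host to growth signals. A C followed by at least 4 bases that were each C or T stood at the annotated start, on the gene's own strand, of 19 of the 49 hosts found in the RefSeq promoter table (38.8%) and of 5.14% of all 27305 genes in it. The 5 starts that follow belong to noncoding hosts of members described here, picked after the values were seen to show starts with and without a tract. Each is given as 40 bases before and 30 bases from the annotated start, with the tract in capitals, or the first base alone where there was none. They lie at chr11:62855856-62855925 (minus strand) for SNHG1, chr1:173869016-173869085 (minus) for GAS5, chr5:139274061-139274130 (plus) for SNHG4, chr6:85678704-85678773 (minus) for SNHG5 and chr4:118278722-118278791 (plus) for SNHG8.
SNHG1: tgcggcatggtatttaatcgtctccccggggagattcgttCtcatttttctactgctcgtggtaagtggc
GAS5: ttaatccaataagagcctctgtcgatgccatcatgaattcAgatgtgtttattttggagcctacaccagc
SNHG4: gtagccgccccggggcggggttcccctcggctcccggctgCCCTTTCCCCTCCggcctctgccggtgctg
SNHG5: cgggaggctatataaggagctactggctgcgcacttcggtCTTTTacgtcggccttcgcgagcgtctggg
SNHG8: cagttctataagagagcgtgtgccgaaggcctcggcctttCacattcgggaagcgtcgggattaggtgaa
SNHG4 had a tract of 13 bases and SNHG5 one of 5, and the annotated starts of SNHG1, GAS5 and SNHG8 had none. An annotated start may differ from the one used in these cells. Ethanol effects had a median of -0.16 over the 29 members in hosts with such a tract and of -0.15 over the 59 in hosts without. For day, 4 of the 29 rose and 7 fell, and 7 of the 59 rose and 21 fell, while 26.3% of all genes rose and 22.6% fell. The sequences of the snoRNAs themselves were not used here.

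Between day 7 and day 21, 16 of the 110 snoRNAs rose and 34 fell, while 26.3% of all genes tested rose and 22.6% fell. The largest falls were in SNORA29, SNORD30 and SNORD28, and the largest rise was in SNORA46. Of the C/D members 9 rose and 23 fell, with a median difference of -0.08; of the H/ACA members 7 rose and 11 fell, with a median of -0.07; the median of all genes was -0.01. Among the 79 members above the median on every array, 11 rose and 20 fell. The split depended on scaling. After every array was set to the same median over all its clusters, 24 members rose and 27 fell. With the arrays centred on the tested genes that are not snoRNAs, 12 rose and 42 fell. The 4 values of day 21 and the 4 of day 7 did not overlap for 12 members that were higher and 17 that were lower at day 21, against 24.6% and 21.4% of all genes. Over single pairs the median of the members was -0.19 without addition, -0.08 with FA, 0.14 with ethanol and -0.15 with ethanol and FA.

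SNHG1, a noncoding gene whose introns hold several C/D snoRNAs, carried the most uniform fall. SNORD30 (chr11:62853663-62853732) read 11.07, 10.93, 10.96 and 10.73 on the day 7 arrays, in the order untreated, FA, ethanol, and ethanol with FA, which is kept throughout. At day 21 it read 9.66, 9.46, 9.53 and 9.26, and in undifferentiated cells 10.24. The day 7 and day 21 arrays did not overlap, and the undifferentiated array lay between them. SNORD30 fell by 1.44 ± 0.05 (SE), or 2.72-fold, in 4 of 4 pairs (limma, adjusted p = 3.13e-07). SNORD28 (chr11:62854621-62854695) read 11.98, 12.02, 11.62 and 11.83 at day 7, 10.91, 10.79, 10.67 and 10.52 at day 21, and 11.19 in undifferentiated cells. It followed the same order of groups, again without overlap, and fell by 1.14 ± 0.07, or 2.20-fold (adjusted p = 6.18e-06). Both are known guides of ribosomal RNA methylation. SNHG1 itself was not among the tested genes.

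GAS5, a noncoding RNA named for its accumulation in growth-arrested cells, held 6 members, and all 6 fell by day 21. With every array set to the same median, SNORD74 no longer passed the threshold. SNORD44 read 10.26, 10.23, 9.80 and 9.95 at day 7 and 9.32, 9.43, 9.34 and 9.12 at day 21, with 10.14 in undifferentiated cells. Its day 7 and day 21 arrays did not overlap, and the undifferentiated value lay inside the day 7 range. SNORD78 fell by 0.81 ± 0.08 (limma, adjusted p = 1.03e-04), SNORD75 by 0.76 ± 0.08 and SNORD44 by 0.76 ± 0.08. SNORD79 fell by 0.62, SNORD81 by 0.31 and SNORD74 by 0.21. Members of 1 host share a transcript and are not independent of each other. GAS5 itself was not among the tested genes.

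**Figure D1:**
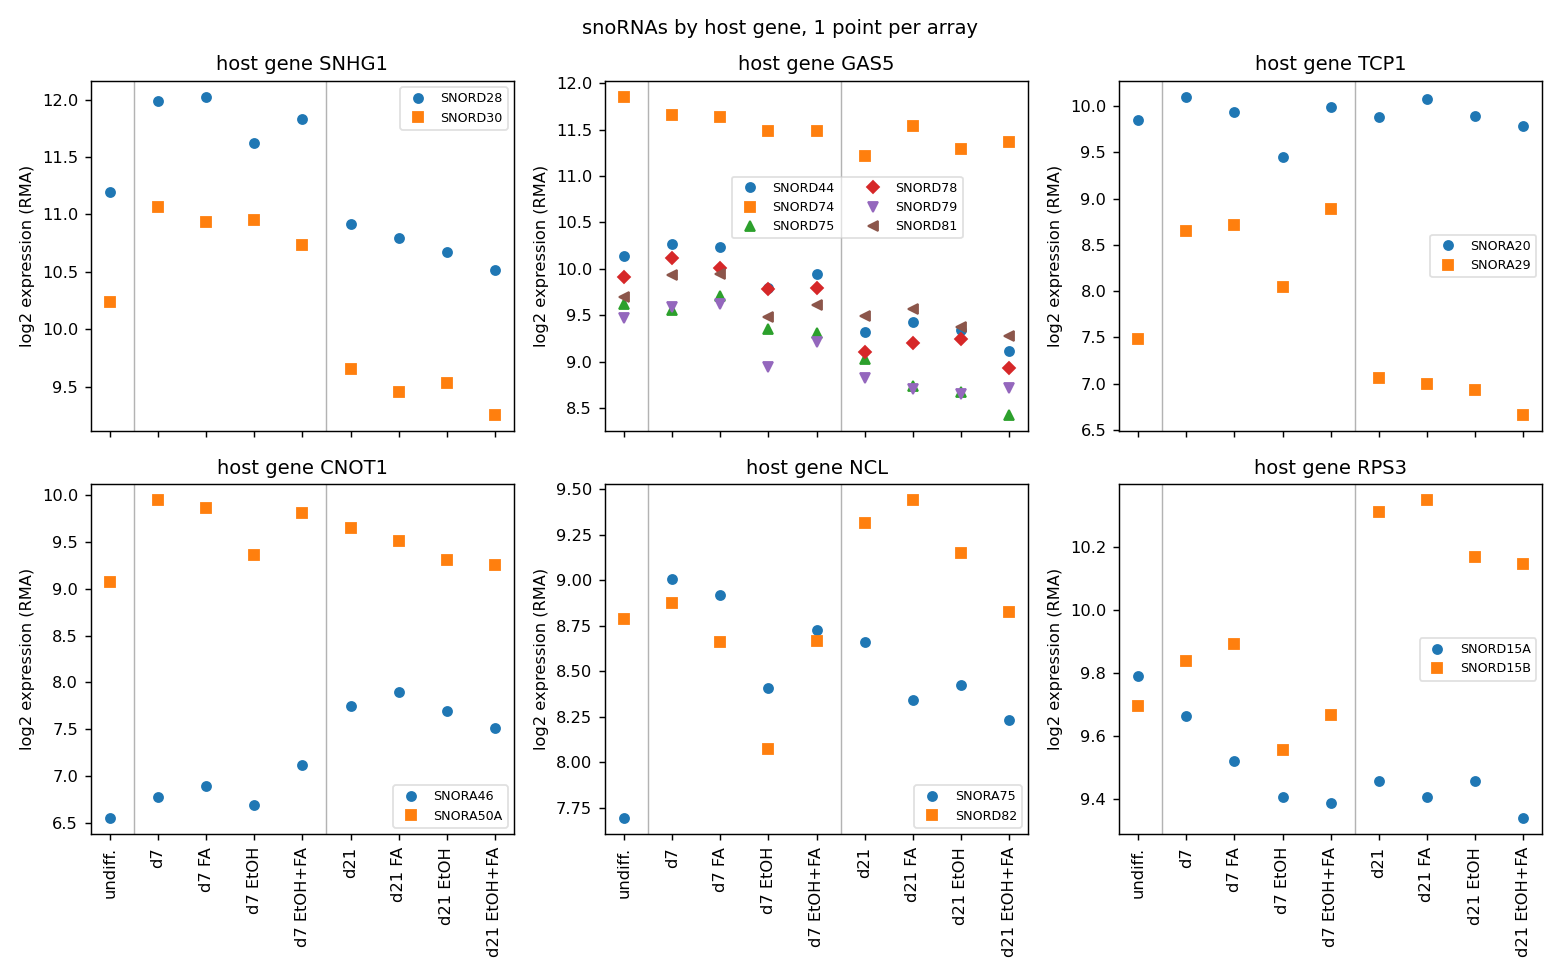
Log2 expression (RMA) of the snoRNAs of several host genes on the 9 arrays, 1 point per array and member, with undifferentiated cells at the left, then the 4 day 7 and the 4 day 21 arrays. The members in SNHG1 sit lower at day 21 without overlap, SNORD30 between 9.26 and 9.66 against 10.73 to 11.07 at day 7, and SNORD74 and SNORD81 in GAS5 overlap between days, while the 2 members in CNOT1 part in opposite directions.

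Among H/ACA members, SNORA29 (chr6:159785594-159785733, within TCP1, a subunit of the CCT chaperonin) read 8.65, 8.72, 8.04 and 8.88 at day 7 and 7.06, 6.99, 6.93 and 6.66 at day 21, with 7.48 in undifferentiated cells. It exceeded the median of all values on the day 7 arrays alone. Its day difference of -1.66 ± 0.16, or 3.16-fold, with single pairs from -2.22 to -1.11, is therefore a description. The second member in TCP1, SNORA20, had a day difference of 0.04 ± 0.11, and TCP1 fell by 0.44 ± 0.04. SNORA74A, a member in SNHG4, read 8.68, 8.64, 8.50 and 8.23 at day 7 and 7.88, 7.61, 7.76 and 7.60 at day 21. These groups did not overlap, and SNORA74A fell by 0.80 ± 0.07 (adjusted p = 5.17e-05). SNORA35 fell by 0.49, and its host HTR2C, a serotonin receptor gene, fell by 1.01. SNORA35 passed the filter on some arrays only, with a 9-array mean not above the median of all values. Its fall is therefore a description too. SNORA24 in SNHG8 fell by 0.41 and SNORA71C in SNHG17 by 0.38. SNHG17, the only host of these 2 that was tested, fell by 0.27.

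The rises were smaller. SNORA46 (chr16:58548499-58548633) read 6.78, 6.89, 6.69 and 7.12 at day 7, 7.75, 7.90, 7.69 and 7.52 at day 21 and 6.55 in undifferentiated cells. It passed the filter through 2 day 21 arrays and lay higher on every day 21 array than on any other. Its difference of 0.85 ± 0.10, or 1.80-fold, is likewise a description. Its host CNOT1, the scaffold of the CCR4-NOT deadenylase, had a day difference of -0.02 ± 0.04, and the second member in CNOT1, SNORA50A, fell by 0.32 ± 0.09. SNORD82 lies in NCL, the gene of the nucleolar protein nucleolin. It read 8.87, 8.66, 8.07 and 8.67 at day 7 and 9.31, 9.44, 9.15 and 8.83 at day 21, so that the lowest day 21 value was below the highest of day 7. SNORD82 rose by 0.61 ± 0.13 (adjusted p = 0.0063), while SNORA75 in the same host fell by 0.35 ± 0.10 and NCL had a difference of 0.07 ± 0.05.

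SNORD15B (chr11:75404421-75404566, in the ribosomal protein gene RPS3) read 9.84, 9.89, 9.55 and 9.67 at day 7 and 10.31, 10.35, 10.17 and 10.15 at day 21, without overlap. It rose by 0.50 ± 0.05 (limma, adjusted p = 9.88e-05), whereas SNORD15A in the same gene had a difference of -0.08 ± 0.06 and RPS3 of 0.02 ± 0.05. SNORA5A in TBRG4 rose by 0.50 ± 0.14, and SNORA5C beside it had a difference of 0.01 ± 0.06. The other rises named by rule were in SNORA60 (0.42, in SNHG11), SNORA49 (0.40, in EP400), SNORA22 (0.36, in CCT6P1), SNORD32A (0.35, in RPL13A), SNORD116-24 (0.28, in SNHG14) and SNORD41 (0.25, in TNPO2). SNORD32A, SNORD116-24, SNORD41 and SNORA5A did not pass the threshold when the day 7 FA array or the day 21 ethanol array was left out. Without the latter, 7 members rose, and without the former, 8.

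Of the 21 hosts with at least 2 members, 8 held members whose day differences lay at least 0.5 apart. In CNOT1 and NCL, 1 member rose and the other fell. In 5 hosts (SNHG1, GAS5, ATP5F1B, HSPA8 and SNHG17) at least 2 members fell and none rose, and in SNHG14 2 rose and none fell. The fall of SNORD59A in ATP5F1B is a description, since its cluster exceeded the filter on 1 array, with a highest value of 7.72. These host counts depend on scaling. With every array set to the same median, the falls of SNORA50A (CNOT1), SNORA75 (NCL), SNORA71A (SNHG17) and SNORD14C (HSPA8) were not called. That leaves no opposite calls in CNOT1 and NCL and 1 falling member each in SNHG17 and HSPA8. In SNHG17 it also makes the calls opposite, since SNORA71D was then called higher and SNORA71C still lower. Hosts could be compared with their snoRNAs for 53 members in 38 tested hosts. The day difference of member and host had the same sign in 21 of the 53, and the differentiation difference in 24. Of these members, 25 were called for day. The host was called too for 9 of them, in the same direction for 7, while 26.3% of all genes rose and 22.6% fell. These shares are descriptions, since members of 1 host are not independent.

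**Figure D2:**
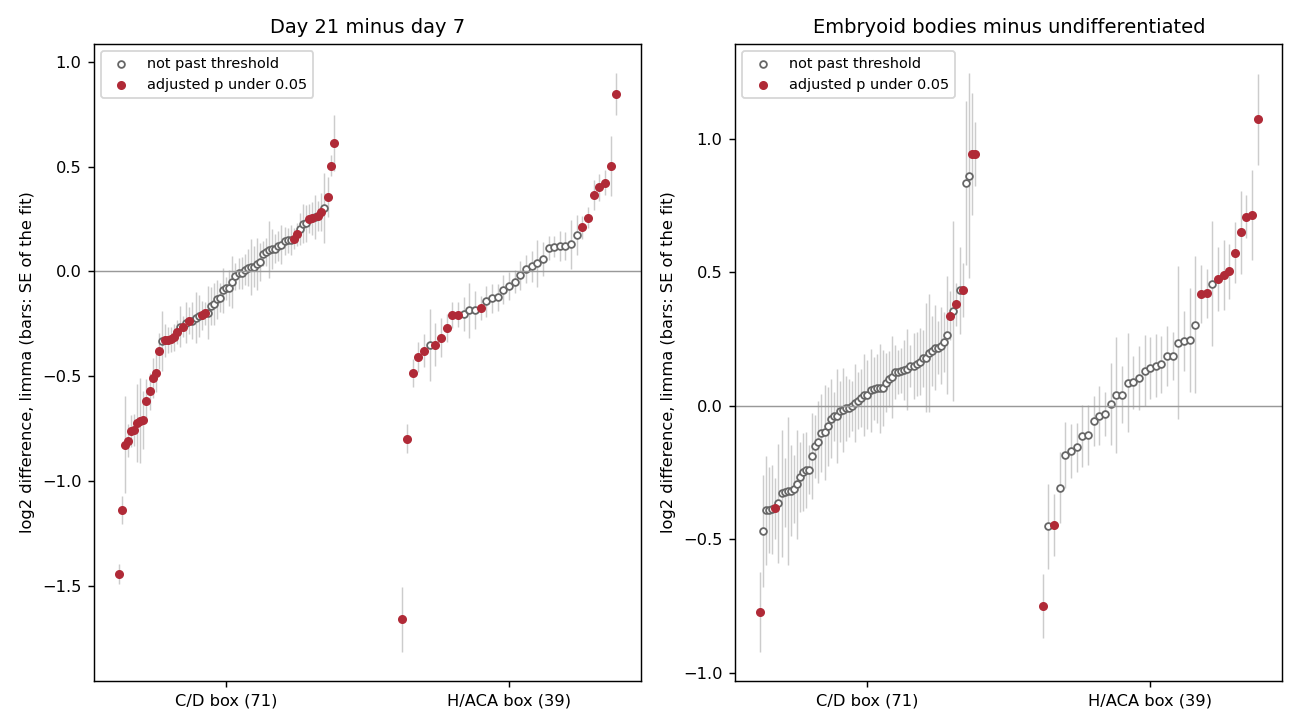
Log2 differences of the 71 C/D and 39 H/ACA members, sorted within each class, for day 21 minus day 7 (left) and embryoid bodies minus undifferentiated cells (right), with the SE of the limma fit as bars and filled points past an adjusted p of 0.05. On the left 34 members are called lower and 16 higher, a split that becomes 27 and 24 when every array is set to the same median. On the right 15 are called higher and 4 lower.

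Relative to the undifferentiated array, 15 snoRNAs were higher and 4 lower in embryoid bodies at the untreated level of the fit averaged over both days, against 11.0% and 17.2% of all genes. The largest differences were in SNORA75, SNORD94 and SNORD59B, all higher, and the first and last of these were below the filter in undifferentiated cells. Of the 39 H/ACA members 10 were higher and 2 lower, with a median of 0.14, and of the 71 C/D members 5 were higher and 2 lower, with a median of 0.04. The median of all genes was -0.05. Among the 79 members above the filter on every array 8 were higher and 3 lower, and among the other 31, with a median of 0.18, 7 were higher and 1 lower. This comparison rests on 1 undifferentiated array, which the fit assumes to vary like the others. Without the day 7 untreated array 8 members were higher, without the day 7 ethanol array 8 were lower, and without the day 7 FA or the day 21 untreated array 2 were lower. The untreated arrays taken alone, as values with no test, gave 14 members at least 1.5-fold higher and 1 lower at day 7 (all genes, 4.51% and 4.40%), and 6 higher and 9 lower at day 21 (all genes, 11.3% and 8.70%).

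SNORA75 (chr2:231455800-231455936, in NCL) read 7.69 in undifferentiated cells, 9.004, 8.92, 8.41 and 8.73 at day 7 and 8.66, 8.34, 8.42 and 8.23 at day 21. All 8 embryoid body values lay above the undifferentiated one. The undifferentiated value was below the filter, so SNORA75 passed through the embryoid body arrays alone, and its difference of 1.07 ± 0.17, or 2.10-fold, is a description. NCL was lower, at -0.27 ± 0.08. SNORD94 (chr2:86135870-86136006, in PTCD3), a guide for a spliceosomal RNA, read 8.01 in undifferentiated cells and from 8.59 to 9.05 on the 8 other arrays. It was higher by 0.94 ± 0.12 (adjusted p = 0.0018), and PTCD3 had a difference of 0.07 ± 0.09. SNORD59B, in the ATP synthase gene ATP5F1B, read 7.65 in undifferentiated cells, 9.06, 8.96, 8.29 and 8.77 at day 7 and 8.11, 8.29, 8.16 and 7.68 at day 21. The last of these lay just above the undifferentiated value, and the day 7 arrays lay furthest above it. SNORD59B too passed through embryoid body arrays alone, and its difference of 0.94 ± 0.23 is a description. ATP5F1B was lower, at -0.27.

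SNORA80E, in KHDC4, was higher by 0.71 ± 0.08 (limma, adjusted p = 0.0013), and KHDC4 itself was higher by 0.48 ± 0.09. Further higher values were those of SNORA46 (0.71), SNORA50A (0.65), SNORA54 (0.57, in NAP1L4), SNORD61 (0.43, in RBMX) and SNORD15B (0.38). Of these, SNORA46, SNORA54 and SNORD61 were below the filter in undifferentiated cells. SNORA46 and SNORA50A lie in the same host and were both higher here, although for day they went opposite ways. SNORD51 (in EEF1B2, a translation elongation factor gene) read 8.39 in undifferentiated cells and from 7.37 to 7.995 elsewhere. It was lower by a difference of -0.77 ± 0.15 (adjusted p = 0.0078), and EEF1B2 was lower too, at -0.50 ± 0.09. SNORA24 read 10.16 in undifferentiated cells, 9.69, 9.68, 9.70 and 9.79 at day 7 and 9.07, 9.34, 9.48 and 9.35 at day 21. Its 3 groups did not overlap, and it had a difference of -0.75 ± 0.12 (adjusted p = 0.0038). In RPL27A, SNORA3B was lower (-0.45) and SNORA3A higher (0.49), and in GAS5 SNORD74 was lower (-0.38).

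Under ethanol, 101 of the 110 snoRNAs had a difference below 0, 67 of 71 C/D and 34 of 39 H/ACA, with a median of -0.15 in either class. Of all 12254 genes 5022 were below 0, with a median of 0.02. These differences were small, and 1 member passed the threshold: SNORA65 fell, and 0 rose, against 0.122% and 0.563% of all genes. At an unadjusted p under 0.05 there were 46 members and 2144 of all genes. Among the 79 members above the filter on all arrays, 71 were below 0, with a median of -0.12. All 4 pairs were negative for 36 members (22 C/D and 14 H/ACA) and positive for 1, against 11.0% and 18.5% of all genes. The medians stayed at -0.16 under either other centring of the arrays, with 101 members below 0 in both.

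The single pairs differed in size. The median over the members was -0.33 at day 7 without FA, where 100 members were lower, and -0.10 with FA, where 76 were lower. At day 21 it was -0.01 without FA (58 lower) and -0.16 with FA (95 lower). All genes had medians between 0.01 and 0.02 in these pairs. The C/D medians were -0.39, -0.08, 0.00 and -0.20 in that order, and those of H/ACA -0.27, -0.20, -0.03 and -0.12. The first pair uses the day 7 ethanol array that correlated least with its neighbours. Without that array, 90 of the 110 members were below 0, the median was -0.11, SNORA65 and SNORA80E were called lower, and SNORD51 was called higher.

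**Figure D3:**
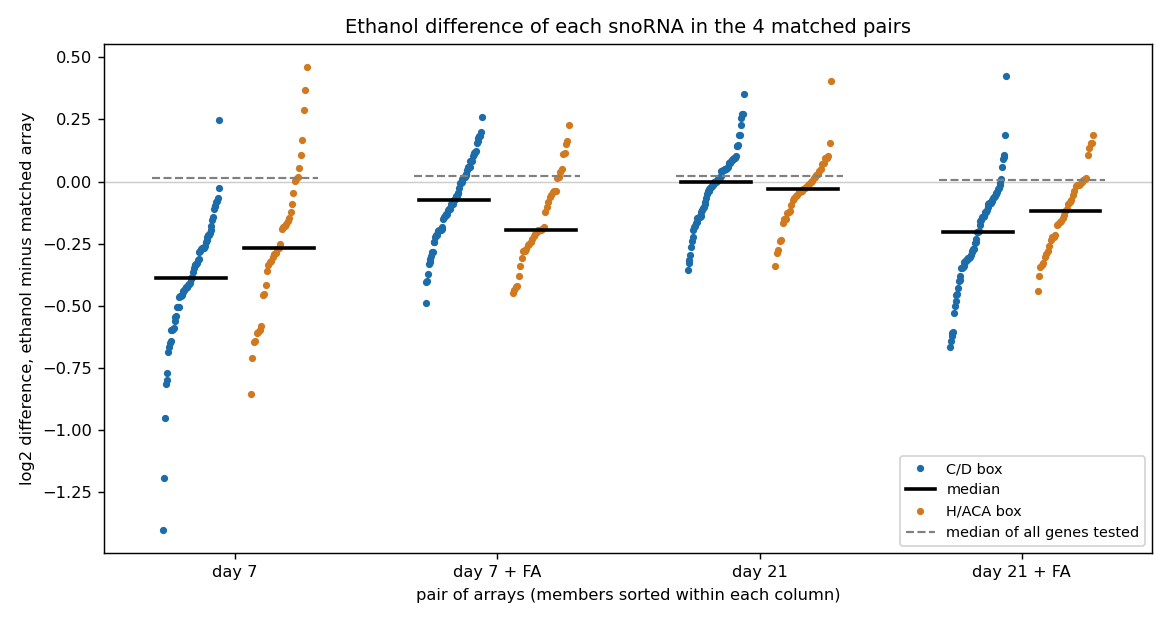
Log2 difference of each snoRNA between an ethanol array and its matched array in the 4 pairs (y axis), members sorted within each column, with the median of the class as a bar and the median of all genes as a dashed line. The day 7 pair lies lowest, with 100 of 110 members below 0, and the day 21 pair without FA lies around 0, with 58 below.

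SNORA65 (chr9:127448502-127448637, in the ribosomal protein gene RPL12) read 8.60 and 8.49 on the day 7 arrays without ethanol (untreated, FA) and 8.18 and 8.06 with it (ethanol, ethanol with FA). At day 21 it read 8.69 and 8.72 without ethanol and 8.46 and 8.28 with it. Each ethanol array was below each ethanol-free array in pairs of the same day, and the undifferentiated value was 8.49. SNORA65 fell by 0.38 ± 0.05 in 4 of 4 pairs (limma, adjusted p = 0.033), and RPL12 had a difference of -0.13 ± 0.06. The call was lost without any 1 of 6 arrays, with adjusted p from 0.099 to 0.17: day 7 untreated, day 7 FA, and each of the 4 day 21 arrays. When the day 7 array that had both ethanol and FA was left out, SNORA14B and SNORD14E were called lower as well.

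The members next in size did not pass the threshold and are given as values. SNORD59A had -0.56 ± 0.23, on a cluster that exceeded the filter on 1 array. SNORD117, in DDX39B, an RNA helicase gene, had -0.45 ± 0.19, with single pairs from -1.19 to -0.03. SNORD14E, in the chaperone gene HSPA8, had -0.42 ± 0.09 (limma, adjusted p = 0.086), with single pairs from -0.62 to -0.20. It read 8.40 and 8.18 at day 7 without ethanol and 7.86 and 7.98 with it, and 7.85 and 7.69 at day 21 without and 7.53 and 7.07 with it. The ethanol arrays were the lower ones at both days. SNORA50A had -0.31 ± 0.09 and SNORA75 -0.28 ± 0.10. The single member positive in all 4 pairs was SNORA24, at 0.13 ± 0.07. In SNHG5 the 2 members lay at -0.39 and -0.27, in SNHG1 at -0.27 and -0.16, and the 6 in GAS5 between -0.32 and -0.11.

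Other genes were set beside the ethanol differences, in lists chosen after the values were seen. Of 38 tested hosts of members, 27 were below 0. Of 12 scaRNA genes, whose products guide modification of spliceosomal RNAs, 10 were below 0, with a median of -0.19. Of 63 cytosolic ribosomal protein genes 56 were below 0, with a median of -0.07. The median was 0.02 over 43 microRNA genes (16 below 0) and -0.01 over 20 spliceosomal U, Y and 7S RNA genes (11 below 0). In single pairs, in the order used above, the U, Y and 7S list had medians of -0.16, 0.16, -0.0040 and -0.13, with 13, 7, 11 and 14 of 20 lower, so it was low in the same 2 pairs in which the snoRNAs were lowest. The microRNA list had 0.16, -0.14, -0.00052 and -0.01. The scaRNA list had -0.21, -0.09, -0.16 and -0.03, so at day 21 it was lower without FA than with it, unlike the snoRNAs. The ribosomal protein list had -0.20, -0.07, -0.0016 and -0.03. Among markers, NCAM1, a neural adhesion gene, was the 1 of 8 tested markers of other cell types called with ethanol, higher by 0.47 in 4 of 4 pairs. Of the 10 markers of undifferentiated cells 0 were called, with a median of 0.13. Whether cell type, RNA quality or short RNA recovery had a part in the snoRNA differences was not tested.

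**Figure D4:**
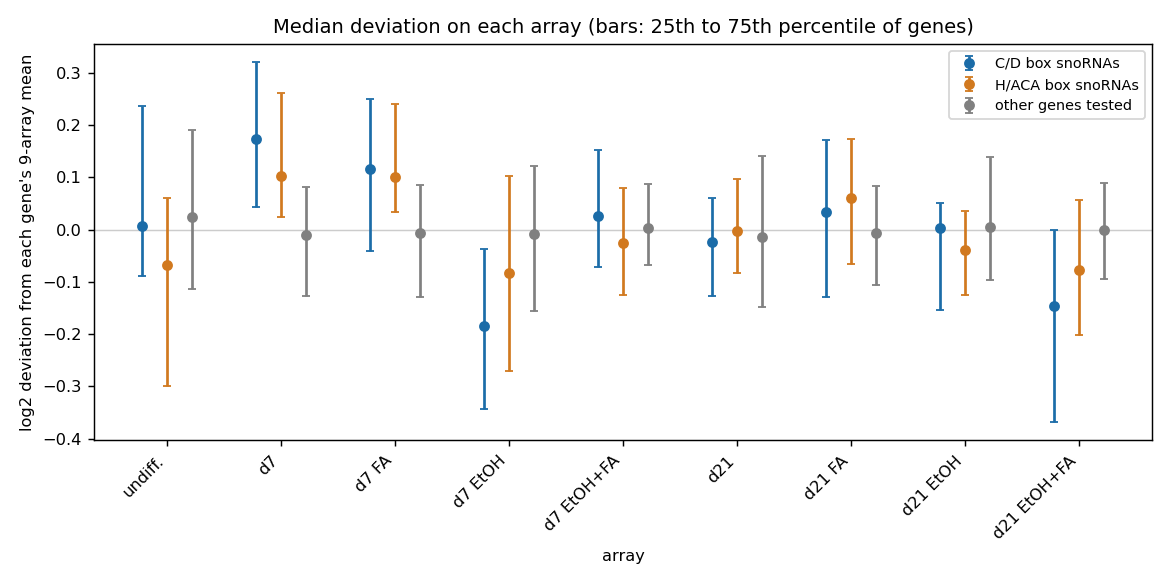
Median log2 deviation from each gene's own 9-array mean on every array, for C/D members, H/ACA members and the other 12144 genes tested, with bars from the 25th to the 75th percentile of the genes. The day 7 untreated and FA arrays lie high for the members (medians of all members 0.15 and 0.12), the day 7 ethanol array (-0.16) and the day 21 array with ethanol and FA (-0.11) low, and other genes stay within -0.01 and 0.02.

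FA gave 0 calls among the snoRNAs and among all genes in limma's fit (0% called). At an unadjusted p under 0.05 there were 4 members and 121 of all genes. The median difference was 0.02 for C/D and 0.01 for H/ACA. Single pairs went both ways, with medians of -0.04 at day 7, 0.18 at day 7 with ethanol, 0.05 at day 21 and -0.12 at day 21 with ethanol. The second of these pairs and the first ethanol pair share the day 7 ethanol array. Members with the same sign in all 4 pairs had small values, from -0.21 ± 0.05 in SNORD30 and -0.20 ± 0.06 in SNORD52 to 0.16 ± 0.07 in SNORA51 and 0.14 ± 0.06 in SNORA68. SNORA74A had -0.18, SNORD14C -0.12, SNORD116-21 0.12, SNORD45A 0.11 and SNORA23 0.10.

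When an interaction was added to the model, 0 members passed for ethanol by day, ethanol by FA or FA by day in limma's test, with the smallest adjusted p at 0.41, 0.99 and 0.40. At an unadjusted p under 0.05 there were 8, 1 and 8 members. The interaction medians over the members were 0.11, 0.03 and -0.11, and 1 (0.00816%), 0 and 0 of all genes passed. Whether the ethanol differences of the snoRNAs differ between days or with FA was therefore not detectable with 1 array per condition.

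The imprinted snoRNA arrays of chromosome 15 differed in whether they were measured. SNORD116, a cluster of near-identical copies in SNHG14 that is lost in Prader-Willi syndrome, had 20 copies with their own cluster, of which 16 passed. SNORD115, further along the same transcript, had 0 of 20, with a highest value of 7.51, and SNORD113 and SNORD114 of the chromosome 14 domain had 0 of 6, with a highest value of 5.99. Copies share bases, so a value cannot be assigned to 1 copy with certainty. SNORD116-15 read from 13.24 to 13.59 over the 9 arrays, with the day 7 ethanol array lowest. Among the 16 copies SNORD116-24 and SNORD116-20 rose by day 21 and 0 fell, with a median of 0.12. Of all genes, 26.3% rose and 22.6% fell. With every array set to the same median, SNORD116-1, SNORD116-15, SNORD116-25 and SNORD116-26 were called higher as well. Without the day 21 ethanol array or without the day 7 FA array, no copy was called for day. Without the day 21 untreated array no copy was called higher, and SNORD116-28 was called lower. For differentiation 0 copies were called, against 11.0% of all genes higher and 17.2% lower. For ethanol 15 of the 16 were below 0, with a median of -0.10. Among the other brightest members by rule, SNORD13, an independently transcribed snoRNA, read from 12.85 to 13.15 and SNORA71D from 12.14 to 12.42. SNORA3A read from 11.97 to 12.46 and was called higher in embryoid bodies, by 0.49.

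**Figure D5:**
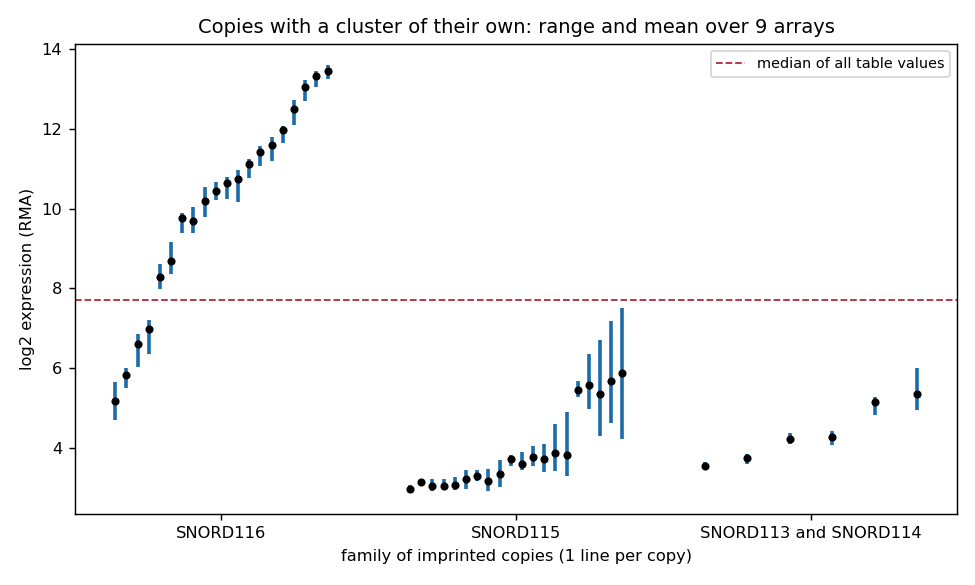
Log2 expression (RMA) of the imprinted snoRNA copies that had a cluster of their own, 1 line per copy from its lowest to its highest array with a dot at its mean, and the median of all table values (7.71) dashed. Of the SNORD116 copies 16 of 20 rise above the line, and 0 of 20 SNORD115 copies and 0 of 6 SNORD113 and SNORD114 copies do.

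The genes of proteins that bind, assemble or act with snoRNAs were read from the same fit, in which 11.0% of all genes were higher and 17.2% lower with differentiation, and 26.3% rose and 22.6% fell by day. Of 27 genes of the U3 processome and ribosomal RNA processing, 19 were lower in embryoid bodies and 0 higher, among them RRS1 (-0.79), BOP1 (-0.78) and RRP9 (-0.70), and 6 fell by day 21. Of the 4 H/ACA core protein genes, 3 were lower: NOP10 (-0.46), NHP2 (-0.45) and DKC1 (-0.43), the last being dyskerin. Among 12 snoRNP assembly factors 4 were lower, including RUVBL1 (-1.09), RUVBL2 (-0.74) and TCOF1 (-0.70), and for day 1 rose and 5 fell. Of the C/D core proteins FBL and NOP58 were measured, and FBL, which is fibrillarin, fell by 0.14 by day 21. Of 10 genes of small RNA ends and the exosome 4 were lower in embryoid bodies, and of 13 RNA polymerase I genes 1 was higher and 4 lower. For day these lists had 3 higher and 2 lower, and 4 higher and 2 lower. Of the 4 tested noncoding hosts, SNHG17 (-0.27) and SNHG29 (-0.20) fell by day 21, and SNHG17 was also lower in embryoid bodies (-0.51). None of these genes was called for ethanol or FA.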

How the data were processed

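Expression was measured in 9 samples, 1 per condition. The deposited values were log2 expression values per transcript cluster, which, per the submitters' processing notes, the authors made with RMA (Affymetrix Expression Console 1.3.1). No source used here names the build behind them. RMA brings arrays to a common distribution, which hides a shift of most transcripts and shrinks differences of dim clusters.

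Of 33297 clusters, the platform annotation gave 19460 a single symbol, 1754 several and none to 12083. The brightest cluster stood for a gene. Genes whose highest value exceeded 7.71 were fitted with limma 3.58.1 (lmFit, eBayes) in R 4.3.3. The model held ethanol, FA, day and the undifferentiated array, which left 4 residual degrees of freedom (prior 3.94). Each interaction was added alone, leaving 3. P-values were adjusted by Benjamini-Hochberg over 12254 genes. The fit was tested on simulated data. Hosts were assigned by containment in a RefSeq gene span, without strand, since the table used gives none. LOC genes were passed over as hosts, and a snoRNA pseudogene was not assigned a host. Coordinates and host start sequences are from RefSeq (GRCh38.p14).

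For day and differentiation the members named were, in each class and direction, the 5 largest called with the same sign in all pairs, 1 per set of copies; for ethanol and FA up to 4 called, filled to 3 with values of the same sign in all 4 pairs; the 2 brightest of each class; and up to 3 genes per list. Others were chosen after their values were seen, and 1 member named by the rule is not reported here. The members, lists and tests were chosen with earlier results of these data known. Alternatives were another centring, filter, cluster rule, variance trend or model, 1 copy per family, and each array left out.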

Additional observations from a re-analysis of the deposited data

How the results depend on the processing

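No paired analysis was possible because each condition had 1 array and the labels give no replicate numbers; the model's own terms match the arrays. The count of snoRNAs called lower with ethanol was 1; it was 4 with no filter on low values (SNORA65 and the dim copies SNORD115-25, SNORD115-32 and SNORD115-44), 3 with an intensity trend in eBayes, 3 with arrays centred on the genes that are not snoRNAs (an alternative added after seeing the data) and 0 with the ethanol term alone. Leaving out 1 array at a time gave 0 to 3 lower and 0 to 1 higher for ethanol, 7 to 19 higher and 24 to 45 lower for day, and 8 to 21 higher and 2 to 8 lower for differentiation. With no filter, which takes in all 176 snoRNA genes, 25 rose and 43 fell by day. The day median of C/D minus that of H/ACA was -0.01; it was 0.076 with no filter, -0.11 with 1 member per family, -0.13 without the SNORD116 copies (added after seeing the data) and from -0.094 to 0.0072 with 1 array left out. Of the named members' values, 819 under an alternative kept their call, 41 fell short of the threshold and 2 newly passed it, and none changed sign after being called. Signal limits dim members, whose differences RMA compresses.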

Other observations

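Other short nuclear RNAs were read from the same fit, without a test against the snoRNAs. Of 13 genes of the Cajal body list, 12 scaRNAs and the coilin gene COIL, 8 rose and 1 fell between day 7 and day 21 in limma's fit, while 26.3% of all genes rose and 22.6% fell. SCARNA4 rose by 1.36, SCARNA7 by 0.72 and SCARNA6 by 0.71. In embryoid bodies 3 were higher than in undifferentiated cells, where 11.0% of all genes were higher and 17.2% lower, among them SCARNA9 (1.31). Of 11 spliceosomal and other nuclear RNAs tested, 5 rose and 1 fell by day 21, and 5 were lower in embryoid bodies, led by RNU5D-1 at -1.71. Of 5 tested imprinted genes of the chromosome 15 and 14 domains, 3 rose and 1 fell by day 21. NDN rose by 0.49 and MAGEL2 by 0.45. MAGEL2 exceeded the filter only at day 21, untreated (7.77) and with FA (7.85), so its rise is a description.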
